A study of Schizosaccharomyces pombe with 6 samples.

Results

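The mug and meu genes are fission yeast genes that carry a name for raised expression in meiosis. The members are the genes whose common name in the deposited comparison table is mug or meu followed by a number, apart from a few such names that are not analysed here. The rule used names and no measured value, and gave 116 of the 6986 genes, 93 named mug and 23 named meu. Of these, 111 are protein-coding and 5 are non-coding RNAs. They lie on all 3 chromosomes, 58 on chromosome I, 30 on II and 28 on III.

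Fission yeast (Schizosaccharomyces pombe) grows as a haploid and enters meiosis after nitrogen starvation and mating. The regulators Ste11 and Mei2 open the programme, the forkhead factor Mei4 then switches on a large middle wave of genes through FLEX sites, and the products build recombined chromosomes, forespore membranes and spore walls. In growing cells the RNA-binding protein Mmi1 directs many meiotic transcripts to the nuclear exosome. Most mug and meu names were given because the RNA rose in meiotic time courses or libraries, so the names say little about what the proteins do.

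The study measured polyadenylated RNA in 3 libraries of wild-type cells, strain JS 77 with genotype WT, and 3 libraries of strain AS2300, genotype h- duf89delta::hygR, where h- is a mating type and hygR, a gene for hygromycin resistance, marks the deletion of duf89. How much of the locus was removed is not in the labels used here. Every culture grew in log phase in YES, a rich medium, at 30 ºC, so both groups were vegetative and no meiotic sample was included. The mating type of the wild type is not in the labels used here, and the cultures all come from 1 strain per genotype. The comparison of deletion with wild type asks how RNA levels change when Duf89, a metal-dependent phosphatase linked to the repair of damaged metabolites, is lost.

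The libraries held 18244492 to 21572536 counts, and libraries of a group correlated with an r of 0.992 to 0.996 across genes. The gene duf89 itself had 808, 897 and 794 counts in wild type against 229, 234 and 373 after deletion, so reads from the locus fell but were not absent. Its level fell from 44.3 ± 2.12 CPM (counts scaled to library size, SD, n = 3) to 13.2 ± 3.89 CPM, which is -1.74 ± 0.16 (SE) as a log2 fold change (adjusted p = 6.65e-05 in edgeR's quasi-likelihood test). RNA of most markers of mating and meiosis was read in both groups. The 5 entry regulators summed to 169 to 188 CPM in wild type and 116 to 160 CPM in the deletion, with mei2 and mei3 called lower and none higher. At 11 to 39 counts per library, mei3 was not called by DESeq2 (adjusted p = 0.058), with cyclic loess (0.11), without wild-type replicate 2 (0.12) or with any deletion library left out (0.051 to 0.093). The 7 M-specific markers summed to 265 to 286 and 227 to 343 CPM, with none called. Among them mat1-Mc and mat1-Mi are listed at 0 in every library, but 100% of their 50-base stretches occur elsewhere in the genome, and how reads with several matches were counted is not stated. For the P-specific markers, 3 of 5 were found, summing to 42.3 to 43.9 and 37.3 to 42.1 CPM with map2 called lower. The 5 spore markers summed to 105 to 107 and 91.2 to 96.0 CPM, with isp3 lower and spo6 higher, the latter not called without wild-type replicate 2 (adjusted p = 0.058). Few genes carried these sums. In wild type bgs2 averaged 76.9 CPM of the spore sum, and mfm2 144 and mam1 110 CPM of the M-specific sum. Deletion replicate 1 had the highest level of mfm1, mfm2, mam1 and mam2 of all libraries, but not of mfm3. For mfm2 it held 190 CPM, against 118 and 137 in deletion replicates 2 and 3 and 138 to 153 in wild type. Whether the cultures held any mating or meiotic cells was not tested, nor what part such cells had in any result on the mug and meu genes. In such bulk samples, fewer cells that express a gene and less of its RNA per cell cannot be told apart.

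Transcripts of most mug and meu genes were readable in vegetative cells, at low levels. Enough counts for the test were present for 105 members, 87 mug and 18 meu genes. On the scale of CPM per kilobase of transcript, their median level in wild type was 9.48, against 40.7 for all tested protein-coding genes and 29.9 for all tested genes. The other 11 members were not tested. Both meu11 and meu20, non-coding RNAs, had 0 counts in all 6 libraries, which by counting error alone allows at most 3 counts, or 0.139 to 0.164 CPM, per library. Each overlaps another gene on the same strand, and reads of a shared stretch may not have been counted. The remaining 9 held few reads. These were meu13, whose product is the Hop2-like partner of meiotic recombinases, mug27, a meiosis-specific NDR family kinase, meu15, meu26, mug93, mug96, mug112, mug116 and mug128. For meu13 the wild-type libraries held 4, 2 and 8 counts and the deletion libraries 8, 6 and 10, and those of mug27 were 3, 3 and 3 against 0, 5 and 3.

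At the other end, 5 members stood above 100 CPM per kilobase in wild type. The highest was mug161, coding for a CwfJ family protein predicted to act in splicing, at 182 ± 6.42 CPM per kilobase (SD, n = 3). It was followed by mug33 at 179 ± 8.44, whose protein binds the polarity factor Tea1 and acts in exocytosis. The spreads of this pair overlap. Next came mug178, for a predicted mitochondrial ribosomal protein, at 116 ± 3.02 CPM per kilobase, and mug64, for a predicted Golgi BAR domain protein, at 113 ± 12.4, again within each other's spread. The fifth was mug58, for a predicted GLYK family kinase, at 108 ± 4.63, within the spread of mug64. The lowest tested level per length was 0.242 ± 0.045 CPM per kilobase, for mug62. Names of the mug series therefore cover genes expressed at ordinary levels in growing cells as well as genes close to silence.

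The mug and meu genes that changed went both ways. The test called 18 members higher and 21 lower in the deletion (39 in all, 37.1% of 105), and 66 were not called. Over all 6045 tested genes 53.3% were called, 28.8% higher and 24.6% lower, and over protein-coding genes 57.1%, 33.2% higher and 23.9% lower. The members had fewer counts, with a median of 335 per library against 1137 over all tested genes, and a difference between these shares was not tested. Called with a change of at least 1.5-fold were 15 of the 105 tested members, against 653 of the 6045 tested genes (10.8%). The median log2 fold change of the members was -0.08, with the middle 50% between -0.29 and 0.20 and the extremes at -1.33 and 1.20. The median over all tested genes was 0.00, and 63 members had a negative value against 42 with a positive one. All 3 deletion libraries lay above all 3 wild-type libraries for 21 members and below them for 33, so the groups were separate for 51.4% of members against 63.3% of all tested genes (32.9% above and 30.4% below). Among the calls, the balance moved with the scaling. The share of calls that were higher was 46.2% as reported, 55.3% with total counts, 33.3% with offsets corrected for GC content and 22.0% with cyclic loess. The same share over all tested genes under the other scalings is not given here. Under each of these settings no member was called in the direction opposite to its call here.

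**Figure D1:**
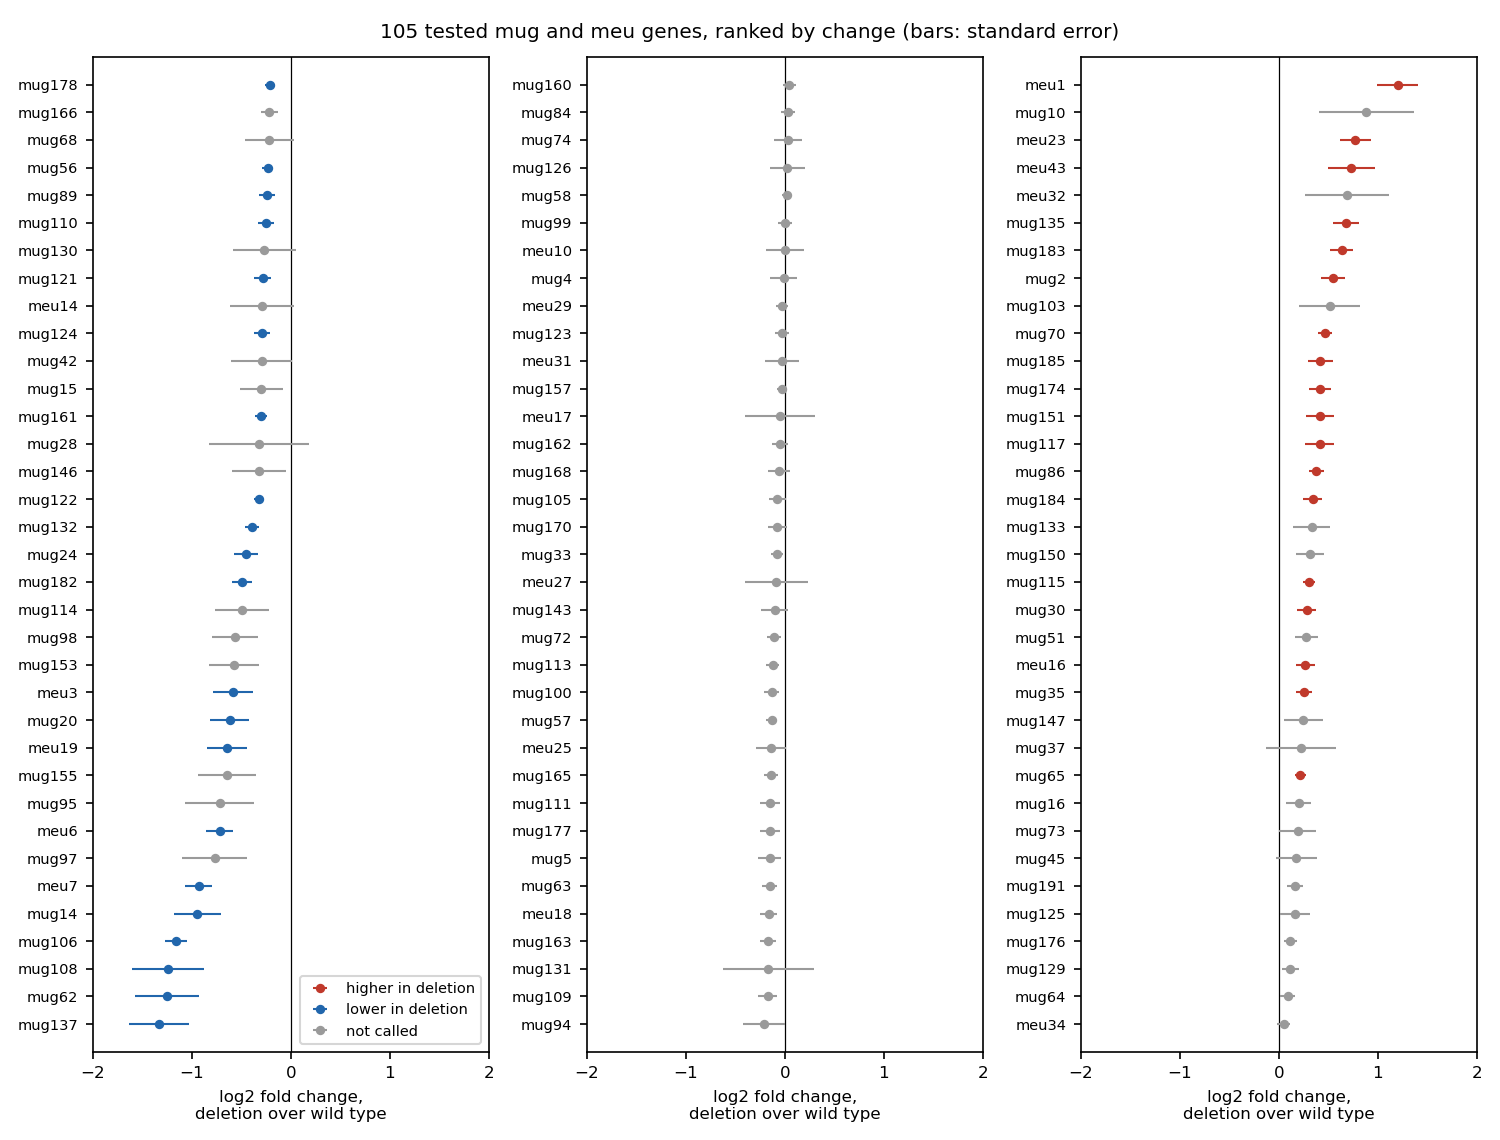
The log2 fold change (deletion over wild type, horizontal axis) of the 105 tested mug and meu genes, ranked from the largest fall to the largest rise across 3 panels, with bars for the standard error. Calls at an adjusted p below 0.05 are red (18 higher) or blue (21 lower); values run from -1.33 for mug137 to 1.20 for meu1.

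The ranked plot also shows that size and call did not always go together, although the largest changes at both ends, mug137 and meu1, were called. Some members with few counts had a sizeable fold change and a wide error. One of them is meu32, for a protein specific to the genus, with 14, 5 and 20 counts in wild type against 31, 21 and 19 (log2 fold change 0.69 ± 0.43 SE, adjusted p = 0.19). Well-covered members such as mug56 and mug122 were called at changes far smaller than that.

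Grouped by the annotated role of their products, the members moved in different directions. These groups were drawn up after values had been seen, so their counts are descriptions. For comparison, 28.8% of all tested genes were called higher and 24.6% lower. Of the 7 tested genes for spore formation and the spore wall, 2 fell and none rose, with a median log2 fold change of -0.23. Both tested genes of meiotic chromosomes fell. Among 8 genes of nuclear and RNA functions 3 rose and 2 fell, and among 16 genes of membrane traffic, the cell surface and transport 3 rose and 3 fell, both with a median of 0.00. Signalling, cytoskeleton and protein turnover had 1 rise and 1 fall among 8. Metabolism and mitochondria had no rise and 3 falls among 7, with a median of -0.17. All 3 genes of the mug2/mug135/meu2 family rose. The largest group, 40 tested genes for proteins known only from the genus or from S. pombe, had 5 rises, 5 falls and a median of -0.12. The remaining 7 genes with other annotations had 2 rises and no fall.

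**Figure D2:**
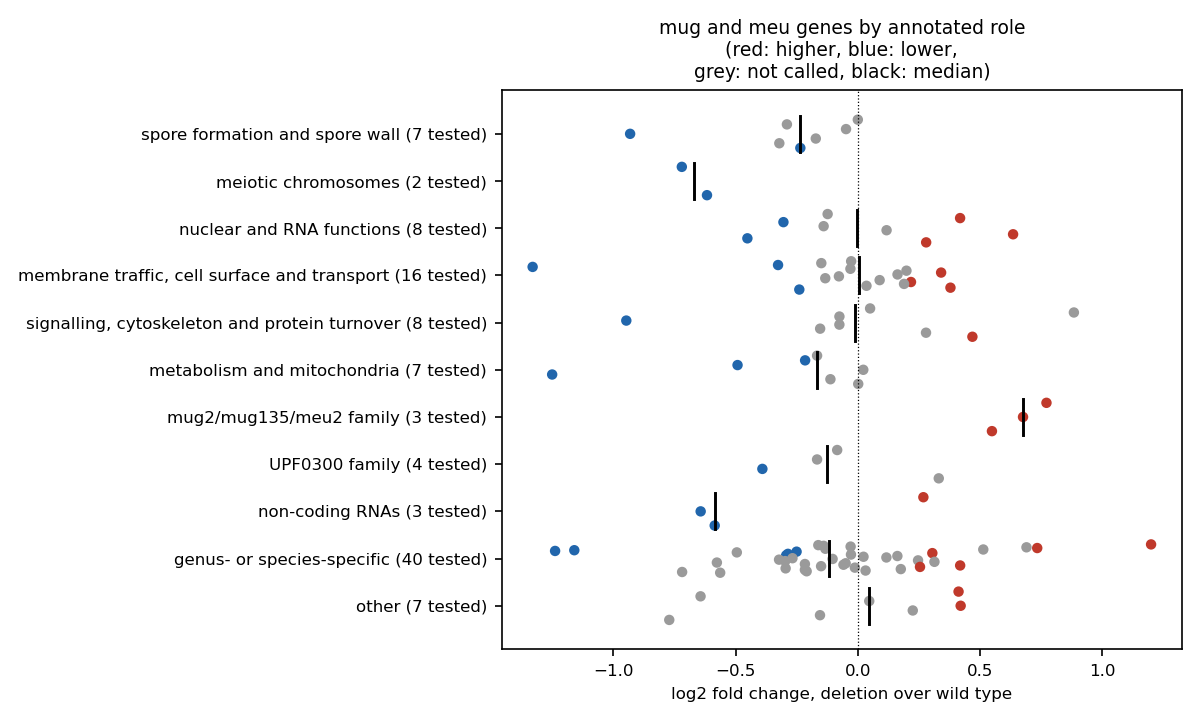
The log2 fold change (deletion over wild type, horizontal axis) of each tested mug and meu gene, in rows by annotated role with the number tested, where red and blue points are calls, grey points are not called and black lines are medians. The 3 genes of the mug2/mug135/meu2 family lie between 0.55 and 0.77, while the 2 genes of meiotic chromosomes lie at -0.72 and -0.62.

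Spore genes of the set mostly had values a little below zero. Most changed was meu7, which encodes the alpha-amylase homolog Aah4. It stood at 11.0, 10.1 and 11.3 CPM in wild type, against 6.45, 5.30 and 5.22 CPM. Every deletion library was well below every wild-type library, and meu7 fell 1.91-fold (log2 fold change -0.93 ± 0.13 SE, adjusted p = 0.00066). The other fall was mug56, annotated in spore wall assembly, which is abundant in growing cells and went from 269 ± 10.1 to 228 ± 15.4 CPM (SD, n = 3; -0.23 ± 0.06 on the log2 scale, adjusted p = 0.0073). No call was made for meu14, whose product sits at the leading edge of the forespore membrane, at 1.38, 1.54 and 2.75 against 1.66, 1.08 and 1.90 CPM. The groups overlap there, as they do for meu10, a GPI-anchored protein of the ascospore wall, at 8.41, 7.98 and 7.99 against 7.84, 5.93 and 10.6 CPM. The RNA-binding protein gene mug28, needed for forespore membrane formation, and the glucosidase gene meu17 both stayed under 1 CPM on average in each group and were not called, and neither was mug109, for a predicted Rab GTPase binding protein.

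Both tested genes of meiotic chromosomes had lower RNA in the deletion. For meu6, which codes for a pleckstrin homology domain protein implicated in meiotic chromosome segregation, wild type gave 7.85, 8.80 and 8.94 CPM and deletion libraries 4.89, 5.15 and 5.51 CPM. The groups are separate and tight, and the fall was 1.65-fold (log2 fold change -0.72 ± 0.13 SE, adjusted p = 0.0023). The gene clr4, for the H3K9 methyltransferase of heterochromatin, overlaps meu6 on the opposite strand and rose by 0.29 on the log2 scale, a call lost without wild-type replicate 2 (adjusted p = 0.060) and with cyclic loess (0.05, adjusted p = 0.65). For mug20, a component of the linear elements that carry meiotic recombination proteins, the values were 4.09, 4.07 and 3.39 CPM against 2.21, 3.04 and 2.28 CPM. The lowest wild-type library was only a little above the highest deletion library, and the fall of 1.53-fold (adjusted p = 0.025) was no longer called when wild-type replicate 1 (adjusted p = 0.051), wild-type replicate 2 (0.077), deletion replicate 1 (0.11) or deletion replicate 3 (0.087) was left out, nor by DESeq2 (0.052) or with cyclic loess (0.063).

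Nuclear and RNA-related members split. The histone chaperone gene mug183, now named rtt106, had 19.6, 21.2 and 23.5 CPM in wild type and rose to 29.6, 31.5 and 38.9 CPM. All deletion libraries were higher, by 1.55-fold on average (log2 fold change 0.64 ± 0.12 SE, adjusted p = 0.0022). Smaller rises were called for mug151, for an HCNGP-like protein annotated with conflicting information, and for mug30, a HECT-type ubiquitin ligase found with the TRAMP complex of nuclear RNA surveillance (0.28 ± 0.09, adjusted p = 0.028). The call of mug30 was lost on leaving out wild-type replicate 1 (adjusted p = 0.092) or wild-type replicate 2 (0.086), with GC-corrected offsets (0.19, adjusted p = 0.081) and with cyclic loess (0.04, adjusted p = 0.70). For mug151 the values were 14.5, 20.4 and 21.3 against 24.2, 23.0 and 28.1 CPM, with wild-type replicate 1 below the other libraries of its group. Its call (0.42 ± 0.14, adjusted p = 0.032) disappeared without wild-type replicate 1 (adjusted p = 0.070, with the log2 fold change at 0.27), and likewise without wild-type replicate 2 (0.053) and on leaving out deletion replicate 3 (0.077). With cyclic loess it was 0.18 (adjusted p = 0.23). In the other direction, mug24, which encodes an RRM-type RNA-binding protein, had 28.6, 27.7 and 31.8 CPM in wild type, against 23.8, 23.2 and 17.4 CPM. The groups did not overlap, deletion replicate 3 was lowest, and the fall was 1.37-fold (-0.45 ± 0.12, adjusted p = 0.013). The splicing gene mug161 had 345, 353 and 329 CPM against 290, 289 and 252 CPM, a separate and lower set (-0.30 ± 0.06, adjusted p = 0.0029). Not called were mug165, for a subunit of the Clr6 histone deacetylase complex, mug113 and mug176.

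Membrane and transport genes held the largest fall among the members. It was mug137, for a BAR adaptor protein predicted to act in endocytosis, with 2.27, 1.75 and 1.64 CPM in wild type and only 0.784, 0.981 and 0.475 CPM when duf89 was deleted. These values rest on 10 to 41 counts per library. The groups are separate, and the fall was 2.51-fold (log2 fold change -1.33 ± 0.30 SE, adjusted p = 0.0054). Rises were seen for mug86, a predicted acetate transporter of the plasma membrane, at 50.6, 46.9 and 44.7 against 66.1, 61.9 and 56.9 CPM. No libraries of the groups overlap (0.38 ± 0.08, adjusted p = 0.0032), but with cyclic loess the change was 0.20 and not called (adjusted p = 0.089). The exocytosis-associated DNAJ gene mug184 had 29.2, 29.1 and 31.1 CPM against 40.7, 39.6 and 32.9 CPM. Deletion replicate 3 lay near the wild type (0.34 ± 0.09, adjusted p = 0.013), and the call was lost without wild-type replicate 2 (adjusted p = 0.055) and with cyclic loess, where the change was 0.09 (adjusted p = 0.48). Among the abundant members, mug33 had 316, 311 and 289 CPM against 309, 296 and 264 CPM. Its groups overlap and it was not called (-0.08 ± 0.06, adjusted p = 0.32). Neither was mug64, at 116, 133 and 144 against 136, 136 and 145 CPM (0.09 ± 0.07, adjusted p = 0.33). The PX domain gene mug122 fell from 267 ± 2.93 to 213 ± 12.8 CPM (SD, n = 3; adjusted p = 0.0010).

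Signalling and the cytoskeleton gave 1 rise and 1 fall. The gene mug70, for a CBS and PB1 domain protein implicated in signalling, had 60.8, 72.1 and 69.6 CPM in wild type but 97.1, 92.3 and 91.0 CPM with duf89 deleted. The groups lie far apart for a 1.38-fold rise (log2 fold change 0.47 ± 0.07 SE, adjusted p = 0.00083). A gene that overlaps mug70 on the opposite strand also rose, from 55.3 ± 6.91 to 70.4 ± 4.48 CPM (0.35, adjusted p = 0.011). That call was lost with cyclic loess (0.20, adjusted p = 0.059), and how far reads of either gene entered the other was not tested. By contrast mug14, coding for an adducin, which caps and bundles actin filaments in animal cells, went from 3.65, 2.73 and 3.28 CPM to 1.24, 1.67 and 2.09 CPM. The highest deletion library stayed under the lowest wild-type one, with a 1.93-fold fall (-0.95 ± 0.24, adjusted p = 0.0086).

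In metabolism 3 members fell and none rose. With 0.599, 0.343 and 0.427 CPM in the deletion, mug62, a DIP2 family AMP-binding enzyme, was below the 1.05, 0.927 and 1.32 CPM of wild type. Its groups do not overlap, but only 7 to 25 counts stand behind each value. The fall was 2.38-fold (-1.25 ± 0.32, adjusted p = 0.0095), or -0.84 with cyclic loess, where it was not called (adjusted p = 0.059). The second, mug182, encodes a predicted epimerase that repairs damaged NADH, a metabolite repair enzyme as Duf89 is annotated to be. Its wild-type levels were 19.6, 20.0 and 20.6 CPM and its levels in the deletion 15.9, 13.0 and 14.0 CPM. Wild-type libraries were close to each other and all above the deletion (1.41-fold lower, -0.49 ± 0.10, adjusted p = 0.0032). The antisense RNA annotated across mug182 rose in the same libraries, from 3.94 ± 0.58 to 5.84 ± 0.56 CPM (0.57 ± 0.17, adjusted p = 0.020), a call lost without wild-type replicate 2 (adjusted p = 0.077) and on leaving out deletion replicate 2 (0.061). The third, mug178, had 194, 204 and 197 CPM against 180, 169 and 163 CPM, again without overlap (-0.22 ± 0.05, adjusted p = 0.0062).

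The mug2/mug135/meu2 family, named for sequence similarity and without an assigned function here, was the one group in which every tested gene rose. Wild-type levels of meu23 were 6.31, 8.24 and 9.36 CPM and deletion levels 14.3, 11.9 and 14.8 CPM. Levels of mug135 were 6.75, 8.60 and 8.57 against 12.7, 11.8 and 13.8 CPM. For mug2 they were 7.74, 8.55 and 7.04 against 10.5, 12.2 and 11.5 CPM. In each gene the lowest deletion library exceeded the highest wild-type library, with rises of 1.71-fold (meu23, adjusted p = 0.0031), 1.60-fold (mug135, 0.0025) and 1.46-fold (mug2, 0.0052). The log2 fold changes were 0.77 ± 0.16, 0.68 ± 0.13 and 0.55 ± 0.12 (SE), and these 3 calls held under every setting tried in which the gene was tested. Antisense RNAs annotated across a pair of them were lower in the deletion. The one across mug2 was well above its partner and went from 56.2 ± 2.50 to 41.7 ± 2.00 CPM (-0.43 ± 0.07, adjusted p = 0.0011). The one named after mug135 went from 5.47 ± 0.32 to 4.01 ± 0.40 CPM (-0.45 ± 0.16, adjusted p = 0.037), while another antisense RNA over the same gene was not called (-0.07). Leaving out any 1 library ended that call (adjusted p = 0.055 to 0.13), as did DESeq2 (0.077), total counts (0.074) and cyclic loess (0.061). In the UPF0300 family mug132 fell from 47.9 ± 1.60 to 36.6 ± 1.99 CPM (-0.39 ± 0.07, adjusted p = 0.0019). Its relatives mug131, mug133 and meu27, all under 4 CPM on average, were not called.

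**Figure D3:**
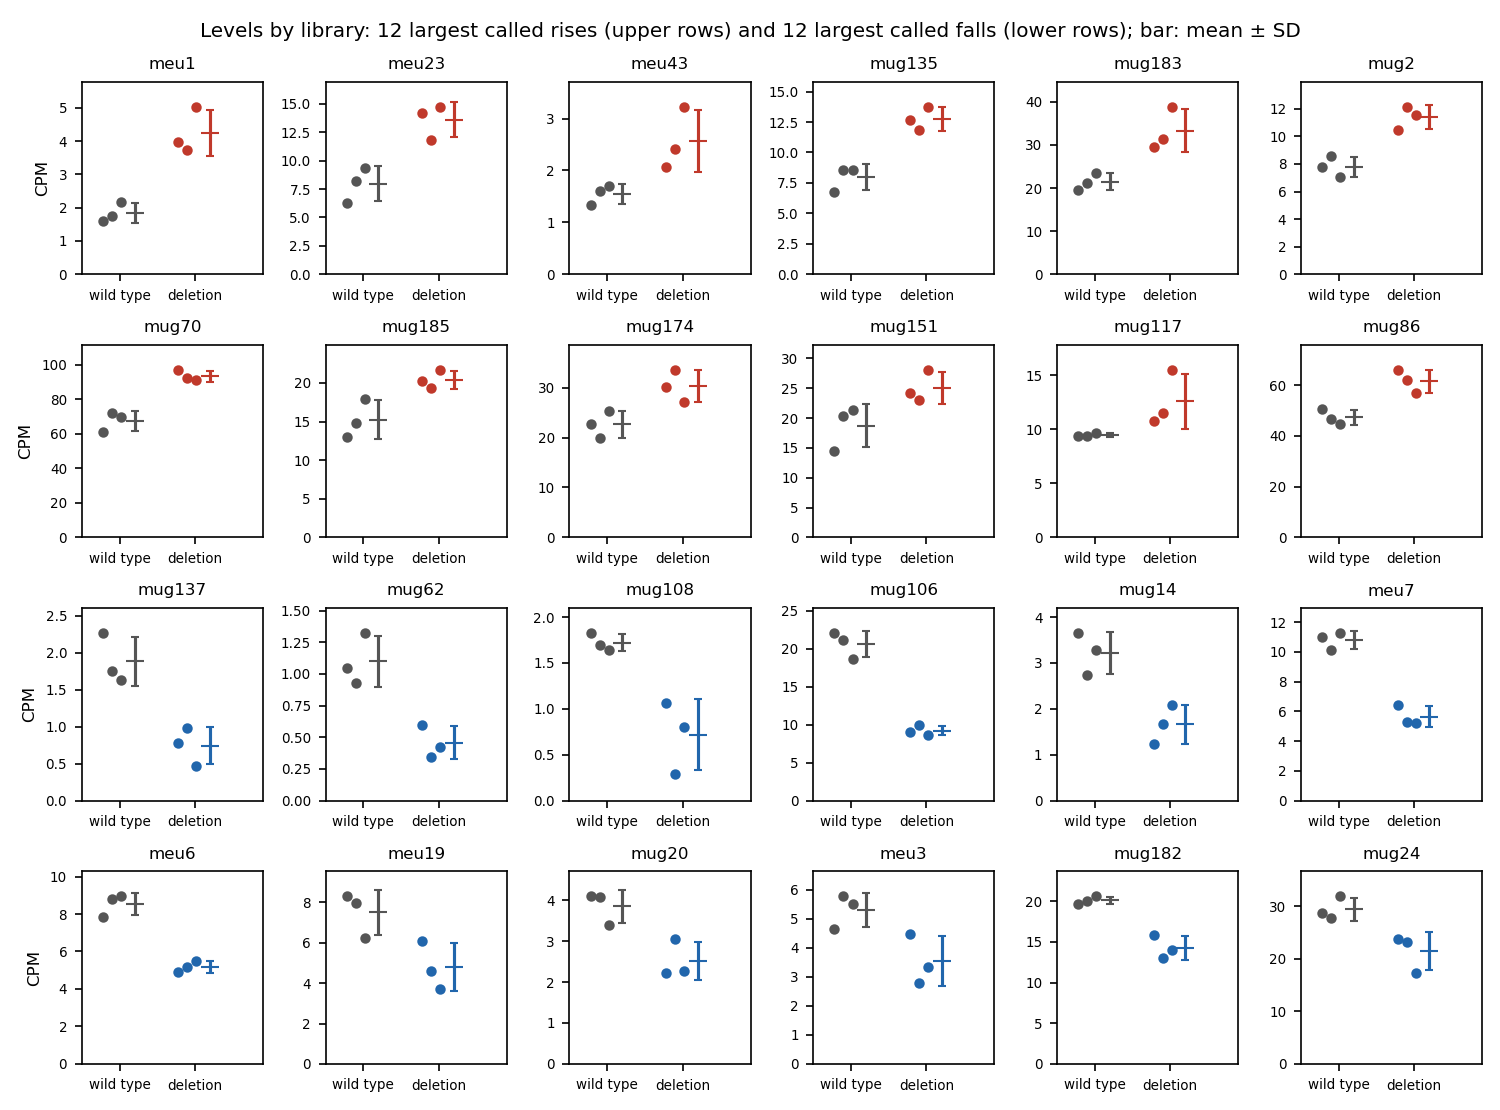
Levels in CPM (vertical axes, from 0) of the 12 largest called rises (upper rows, deletion in red) and 12 largest called falls (lower rows, deletion in blue), with 1 point per library, wild type in grey and a bar for the mean ± SD of 3 libraries. In meu1, the deletion libraries lie at 3.73 to 5.03 CPM against 1.60 to 2.17 CPM, and in mug106 at 8.69 to 9.91 CPM against 18.7 to 22.1 CPM.

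The plot of levels by library covers the 12 largest changes each way, and several are in genes known only from this genus or species. The largest rise was meu1, with 1.60, 1.75 and 2.17 CPM in wild type rising to 3.97, 3.73 and 5.03 CPM. Each deletion library was above each wild-type library, for a 2.30-fold rise (log2 fold change 1.20 ± 0.21 SE, adjusted p = 0.0017). The change of meu43 was less certain, with 1.33, 1.60 and 1.69 against 2.08, 2.40 and 3.23 CPM. The groups are separate and deletion replicate 3 is the highest (0.73 ± 0.24, adjusted p = 0.027). DESeq2 did not call it (adjusted p = 0.073), and the call was also absent on leaving out wild-type replicate 1 (0.068), wild-type replicate 2 (0.065) and deletion replicate 3 (0.085). For mug174 the values were 22.7, 19.9 and 25.4 against 30.2, 33.5 and 27.1 CPM, close but not overlapping (0.42 ± 0.11, adjusted p = 0.012). That call was lost without wild-type replicate 2 (adjusted p = 0.058) and with cyclic loess (0.17, adjusted p = 0.25). Also in this group, mug115 rose from 99.3 ± 4.96 to 123 ± 7.21 CPM (0.31 ± 0.06, adjusted p = 0.0029).

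The fall of smallest adjusted p among all members was that of mug106, a gene specific to S. pombe. Wild-type libraries had 22.1, 21.1 and 18.7 CPM and deletion libraries 9.08, 9.91 and 8.69 CPM. Its groups are far apart, and it fell 2.23-fold (log2 fold change -1.16 ± 0.11 SE, adjusted p = 5.77e-05). The locus overlaps gpm1, coding for a phosphoglycerate mutase of glycolysis, on the same strand. Wild-type libraries held gpm1 at 4372 ± 135 CPM and deletion libraries at 4397 ± 238 CPM, a change of 0.01 that was not called. The sources used here do not give how reads in the shared stretch were assigned, and their part in the fall was not tested. With 1.82, 1.70 and 1.64 CPM in wild type against 1.06, 0.294 and 0.807 CPM, mug108 had 6 to 33 counts per library. Deletion replicate 2 was the lowest, and no libraries overlap (-1.24 ± 0.37, adjusted p = 0.018), although with cyclic loess the value was -0.91 and not called (adjusted p = 0.063). A smaller fall, of mug124 from 33.6 ± 1.12 to 27.4 ± 2.07 CPM (-0.29 ± 0.08, adjusted p = 0.014), was not made without wild-type replicate 2 (adjusted p = 0.067), nor when deletion replicate 2 was left out (0.085).

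Members with other annotations included the DNAJ domain gene mug185, now epr1, with 13.0, 14.8 and 17.9 against 20.2, 19.4 and 21.7 CPM. Every deletion library was above the wild type, the nearest by a small margin (0.42 ± 0.12, adjusted p = 0.016). Without wild-type replicate 2 its adjusted p was 0.065, and with cyclic loess its change was 0.21 (adjusted p = 0.10). Its same-strand neighbour trm10, which overlaps it and encodes a tRNA methyltransferase, also rose, by 0.38 on the log2 scale, a call lost without wild-type replicate 2 (adjusted p = 0.064) and with cyclic loess (0.15, adjusted p = 0.20). For the conserved fungal gene mug117, the wild type gave 9.35, 9.37 and 9.63 CPM, against 10.8, 11.5 and 15.5 CPM. Deletion replicate 3 sits apart from the other 2 (0.41 ± 0.15, adjusted p = 0.037). Leaving it out gave 0.26 (adjusted p = 0.097), and leaving out wild-type replicate 1 (0.070), 2 (0.10) or 3 (0.059) also ended the call, as did a fit with GC-corrected offsets (0.069) or cyclic loess (0.11). The gene cca2, which overlaps mug117 on the opposite strand and encodes a tRNA nucleotidyltransferase, rose by 0.54 on the log2 scale.

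Of the 5 non-coding RNAs, 3 could be tested and all 3 were called, where 53.3% of all tested genes were. For meu19 the wild-type levels were 8.30, 7.98 and 6.24 CPM and those of the deletion 6.09, 4.61 and 3.70 CPM. The wild-type library of lowest level and the deletion library of highest level almost meet (-0.64 ± 0.20, adjusted p = 0.024). For meu3 they were 4.65, 5.77 and 5.50 against 4.47, 2.80 and 3.32 CPM, again nearly touching (-0.59 ± 0.20, adjusted p = 0.035). Both are uncertain for a further reason, since 61.3% of the 50-base stretches of meu19 and 62.2% of those of meu3 occur elsewhere in the genome. Leaving out wild-type replicate 1 (adjusted p = 0.052) or 2 (0.081), or leaving out deletion replicate 2 (0.077) or 3 (0.087), removed the call of meu19. The call of meu3 went in the same way with wild-type replicate 2 (0.11) or 3 (0.073) absent, with deletion replicate 2 (0.14) or 3 (0.10) absent, with total counts (0.052) and with cyclic loess (0.057). The antisense RNA meu16 went from 21.7 ± 0.59 to 26.2 ± 3.02 CPM (0.27 ± 0.10, adjusted p = 0.041), and that call was absent too when any wild-type library (0.058 to 0.13) or deletion replicate 2 (0.12) was left out. It was likewise absent by DESeq2 (0.052), by limma-voom (0.0505), with GC-corrected offsets (0.16) and with cyclic loess, where the change was 0.01 (adjusted p = 0.93).

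Over all members, 16 of the 39 calls were lost when some 1 library was left out, 10, 15 and 3 of them without wild-type replicates 1, 2 and 3, and 3, 7 and 7 without deletion replicates 1, 2 and 3. Across those fits 10 to 18 members were called higher and 14 to 22 lower. The lowest count of rises, 10, came without wild-type replicate 2. Called under every setting that tested them were 18 members, 7 higher and 11 lower. The rises were meu1, meu23, mug2, mug70, mug115, mug135 and mug183. The falls were meu6, meu7, mug14, mug56, mug106, mug122, mug132, mug137, mug161, mug178 and mug182.

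**Figure D4:**
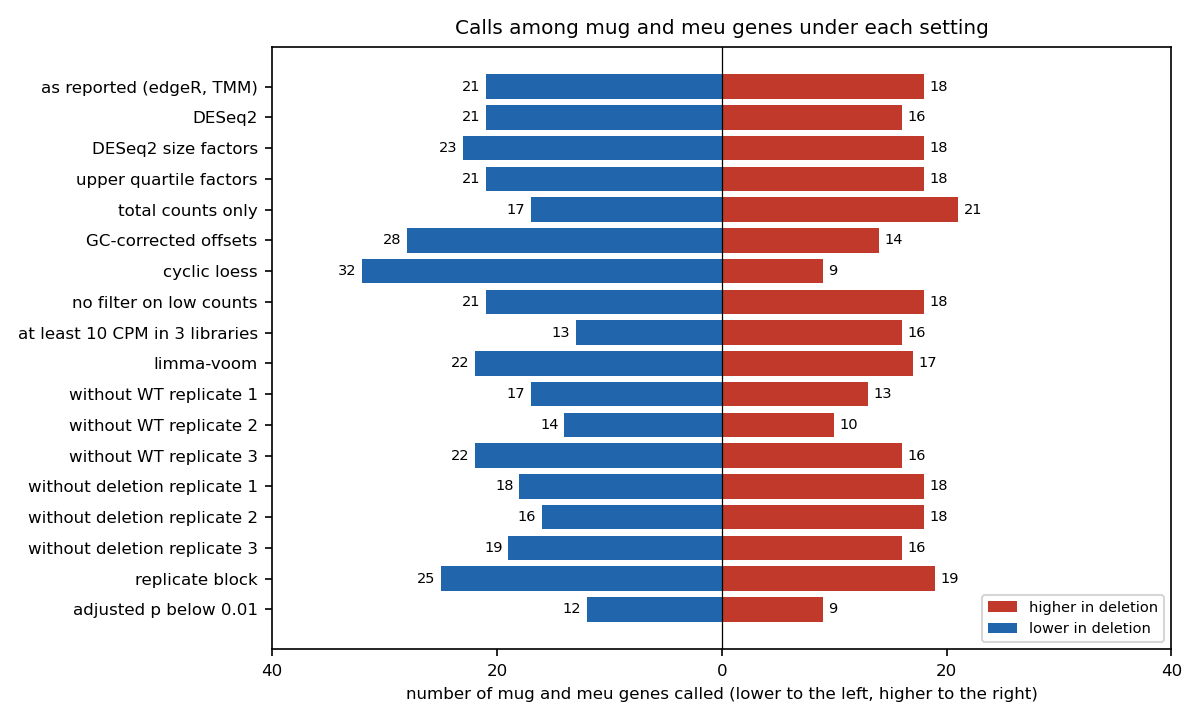
Number of mug and meu genes called (horizontal axis, lower to the left in blue and higher to the right in red) under each setting, 1 bar pair per setting. As reported there are 21 lower and 18 higher; cyclic loess gives 32 and 9, and total counts 17 and 21.

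The plot of calls by setting shows that both directions were present under all settings run, with the largest imbalance under cyclic loess. The balance over all genes under that setting is not given here. Cyclic loess is a scaling that takes out any dependence of the change on abundance. Such a trend was present in the table at large. Over 4959 protein-coding genes the log2 fold change fell with the log2 mean count (Spearman's coefficient -0.41, Pearson's r -0.22). Among the 102 tested protein-coding members it had the opposite sign and was weak (Spearman 0.17, Pearson 0.17). These are descriptions across genes of the same 6 libraries, with counts on both axes. In the 35 members with the fewest counts, 9.5 to 112.5 per library on average, 2 rose and 6 fell, with a median log2 fold change of -0.27. In the middle 35 (121 to 668 counts) 10 rose and 8 fell, with a median of -0.01, and in the top 35 (671 to 6135 counts) 6 rose and 7 fell, with a median of -0.03. No call in the top 35 reached 1.5-fold. For comparison, 28.8% of all 6045 tested genes were called higher and 24.6% lower. The same split by count is not given for all genes, so these counts cannot be read as particular to the members.

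**Figure D5:**
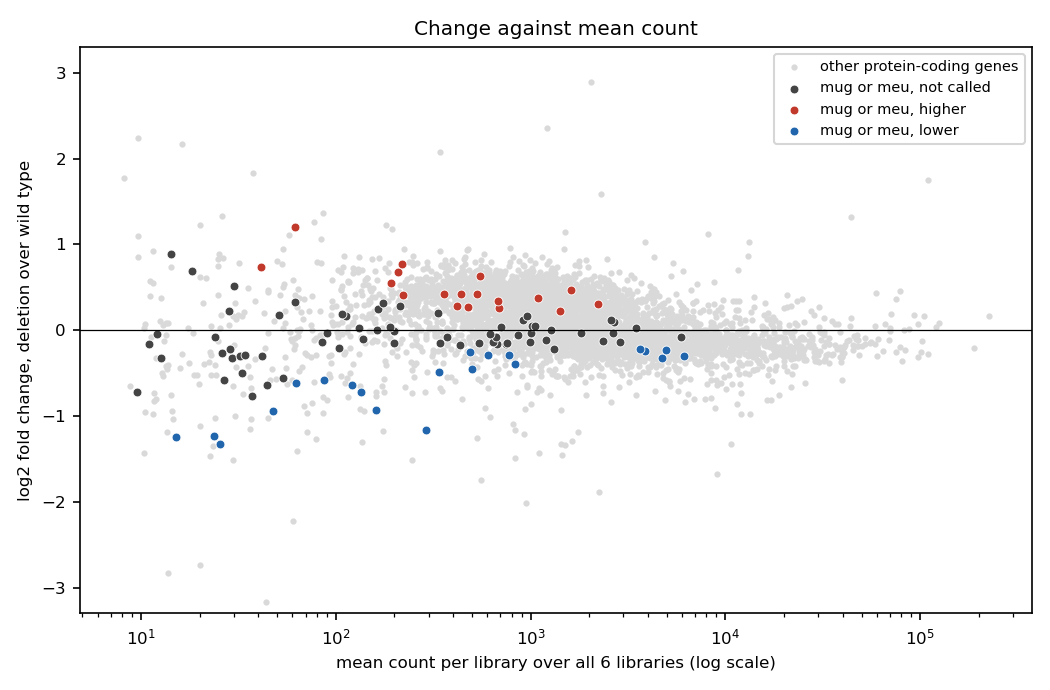
The log2 fold change (deletion over wild type, vertical axis) against the mean count per library (horizontal axis, log scale) for mug and meu genes (red higher, blue lower, black not called) and other protein-coding genes (grey). The 35 members with the fewest counts have a median of -0.27 and the top 35 a median of -0.03, while the grey cloud slopes downward.

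The plot of change against count places the members beside the other protein-coding genes. Many low-count members lie below zero in a range where the grey points spread widely, and the abundant ones lie close to zero. The GC content of the members' transcripts was much like that of others (median 36.5% against 37.2% for all protein-coding genes), and the change of the protein-coding members was weakly related to it, as was that of all protein-coding genes (Spearman -0.22 and -0.21).

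Genes that have since been renamed gave a second set of the same kind. There were 88 genes with a mug or meu name only as a synonym, and 84 were tested. Of these 20 rose and 19 fell, 46.4% in all, against 53.3% of all tested genes and 57.1% of protein-coding genes. The median log2 fold change of the renamed genes was -0.01. Their median level in wild type was 16.5 CPM per kilobase, between that of the members and that of protein-coding genes in general. Whether the renamed genes differ from the members was not tested.

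Antisense RNAs named after members were looked at because the library kit marks strand and because such RNAs are common over meiotic genes in growing cells. In the current RefSeq annotation 100 of the 111 protein-coding members (90.1%) overlap some gene on the opposite strand, as do 89.9% of all protein-coding genes. Of 23 such antisense RNAs 22 were tested and 31.8% of these were called, against 53.3% of all tested genes. There were 2 higher (meu10 and mug182) and 5 lower (mug2, mug68, mug93, mug95 and mug135). The largest fall was over mug93, a TPR repeat gene spliced in meiosis that itself had too few counts to test. Its antisense RNA had 11.0, 11.3 and 8.99 CPM in wild type against 5.53, 5.84 and 5.94 CPM, all lower (-0.85 ± 0.13, adjusted p = 0.0011). Over meu10 the antisense RNA had 1.94, 2.47 and 2.75 against 4.24, 3.09 and 3.70 CPM, all higher (0.62 ± 0.21, adjusted p = 0.030). That call was lost with DESeq2 (adjusted p = 0.067) and when wild-type replicate 1 (0.078), wild-type replicate 2 (0.069), deletion replicate 1 (0.091) or deletion replicate 3 (0.057) was absent. The fall over mug68 (-0.19, adjusted p = 0.048) was lost when any library but wild-type replicate 3 was left out (adjusted p = 0.070 to 0.21) and under 4 other settings. Across 20 pairs with both partners tested, the changes of the antisense RNA and its partner had a Spearman coefficient of 0.12 and a Pearson r of 0.09, from the same 6 libraries. How the authors' counting used strand is not stated in the sources used here, and how far reads of a partner entered the other was not tested.

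What the promoters share was read from letters alone, in windows of 250 bases before to 50 bases after each annotated gene start on both strands. The core of the FLEX site bound by Mei4, GTAAACA, was found in 54 of 111 protein-coding members (48.6%), in 43.7% of the renamed genes and in 16.5% of all 5111 protein-coding genes. It was present in 47.1% of the protein-coding members called higher and in 52.6% of those called lower. The 49 tested members with the core had a median log2 fold change of -0.08 with 8 rises (16.3%) and 10 falls (20.4%). The 53 without it also had -0.08 with 9 rises and 9 falls (17.0% each). Of all tested protein-coding genes with the core 33.9% rose and 22.6% fell, and of those without it 33.1% and 24.1%. In wild type the members with the core stood at a median of 8.51 CPM per kilobase and those without it at 14.8. For the TR box bound by Ste11 the result depended on the letters used. The letters TTCTTTGTT were found in 1.80% of members and 2.00% of all protein-coding genes, and their last 7, CTTTGTT, in 16.2% and 10.3%. The letters TNAAAC, the core of the elements that Mmi1 reads in RNA, occurred in the transcripts at a median of 1.66 per kilobase in members and 1.64 in all protein-coding genes. A match of letters is not evidence of a site in use.

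Other genes of the meiotic programme were read from 4 lists of 65 genes in all, without the members. Of these, 13 carry a mug or meu name as a synonym and so are also among the renamed genes. For comparison with the counts of each list, 28.8% of all tested genes rose and 24.6% fell. The 12 tested regulators of entry had 2 rises and 5 falls, with a median log2 fold change of -0.19. Among them rst2, a transcription factor that activates ste11, fell by 0.45 on the log2 scale. The RNA-binding master regulator gene mei2 fell from 96.1 ± 5.30 to 50.2 ± 13.1 CPM (SD, n = 3; -0.93 ± 0.15, adjusted p = 0.00099). The kinase gene pat1, whose product blocks meiosis, fell by 0.42, and red1, which works with Mmi1 in RNA elimination, rose by 0.42. The calls of mei3, mmi1 and erh1, also counted here, were each lost when some 1 library was left out. Of 16 tested genes of recombination and meiotic chromosomes 5 rose and 1 fell, with a median of 0.13. Here num1, for the cortical anchor of dynein, rose by 1.26 and rec12, for the enzyme that makes meiotic DNA breaks, by 0.79, while the meiotic recombinase gene dmc1 fell by 1.51. Another counted rise, of sgo1, was not called without wild-type replicate 1 (adjusted p = 0.064) or with cyclic loess (0.15). The list also held the symbol hrs1, left out of these counts because in the deposited table it stands for a histidine-tRNA ligase (0.33, higher) and not for the horsetail movement protein, which is listed as mcp6 and was not called.

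In the list of divisions, forespore membrane and spore wall, 5 of 21 tested genes rose and 4 fell, with a median of 0.13. The meiotic septin gene spn5 rose from 2.35 ± 0.37 to 6.10 ± 0.56 CPM (1.37 ± 0.18, adjusted p = 0.00045), and isp3, for a structural protein of the spore wall, fell from 22.2 ± 1.97 to 13.5 ± 1.32 CPM (-0.71 ± 0.11, adjusted p = 0.00090). The exchange factor gene spo14 and the phospholipid transfer protein gene spo20, both needed for the forespore membrane and active in growing cells, fell by 0.29 and 0.24. With cyclic loess spo20 was not called (-0.11, adjusted p = 0.058). Less stable were the rises of chs1 and spo13 and the fall of spo3. DESeq2 called neither chs1 (adjusted p = 0.070) nor spo13 (0.097), and with cyclic loess chs1 was at -0.04 (0.74). Total counts did not call spo3 (-0.11, adjusted p = 0.14). Each of these 3 calls was also lost when any of several single libraries was left out. Among 9 tested transcription factors 1 rose and 3 fell, with a median of -0.25. These were fkh2 (0.33), which acts in the mitotic cell cycle as well, rsv2 (-0.55), pcr1 (-0.19) and atf21 (-1.03). The call of pcr1 was lost with total counts (-0.12, adjusted p = 0.065), without wild-type replicate 2 (0.060) and on leaving out deletion replicate 3 (0.052). That of atf21 was lost with cyclic loess (-0.71, adjusted p = 0.078), without wild-type replicate 1 (0.057) and likewise on leaving out deletion replicate 3 (0.066). The Mei4 gene itself stood at 2.82 ± 0.22 CPM in wild type, against 3.67 ± 0.51 CPM, and was not called (0.38 ± 0.19, adjusted p = 0.11).

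The authors' deposited table, which holds their own comparison, gave nearly the same calls for the tested members at an adjusted p below 0.05. Both called 17 members higher and 21 lower, and both left 64 without a call. In the authors' deposited table mug57 and mug166 were also lower, and meu43 was not called.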

How the data were processed

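The count table, as deposited, gives whole reads per gene for 6 libraries. RNA came from a hot acid phenol extraction and its polyadenylated fraction went into stranded TruSeq libraries, per the labels' protocols; the design text says that the wild-type libraries were deposited earlier and sequenced at the same time. The labels call the deletion replicates biological and only number those of wild type, so p-values measure the spread between these libraries, which may be technical. Tools named in the submitters' processing notes are HTSeq 0.10.0, HISAT2 2.1.0, DESeq2, DESeq and SAMtools, with the build ASM294v2. How strand and multiply matching reads were handled is not stated in the sources used here. The authors' deposited comparison table holds log2 fold changes with standard errors, a score (the test statistic), p-values, and average signal per group, per the file headers; it was used beside the refit only, and gave names, products and synonyms.

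Since meu1 is on 2 lines of the count table, which were summed, its 6987 lines cover 6986 genes. Counts were fitted with edgeR 4.0.16 in R 4.3.3 by the quasi-likelihood F test (two-sided, group as the single term, TMM factors, genes kept by filterByExpr at a minimum count of 10). Benjamini-Hochberg adjustment ran over 6045 genes and a call needs an adjusted p below 0.05. Standard errors are the log2 fold change over the square root of F, and are approximate. CPM uses TMM-scaled totals. Floors cover counting error only and use unscaled totals. The test was tried on simulated data first. Alternatives were DESeq2 1.42.0, limma-voom (limma 3.58.1), other scalings, other filters, a threshold of 0.01, each library left out and a replicate block.

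RefSeq annotation of ASM294v3 matched 6846 genes (98.0%) by identifier, among them all members. Since the notes name another build, it gave names, lengths, GC content, repeats, overlaps and letters of promoters, and no coordinates are printed.

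Members and lists were chosen with earlier results of these data known. Role groups, the renamed genes, the antisense RNAs, the split by count and the promoter letters and their lengths were chosen after values had been seen; a longer form of the FLEX site was also searched and is not reported. Named members are the 12 largest called rises and falls, the 4 highest levels per length, the 4 calls of smallest adjusted p that 1 library decides, and up to 4 called genes of each list; others were named after their values were seen.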

Additional observations from a re-analysis of the deposited data

How the results depend on the processing

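No member was called in the direction opposite to its call here under any setting. Among the listed meiotic genes, chs1 went from 0.22 to -0.04 on the log2 scale with cyclic loess, where it was not called. The balance of member calls changed sides, from 18 higher and 21 lower as reported to 21 and 17 with total counts. A minimum of 10 CPM in 3 libraries, which tests fewer members, gave 16 and 13. Cyclic loess gave 9 and 32. An adjusted p below 0.01 gave 9 and 12 (and 1152 higher and 932 lower over all genes, against 1739 and 1486). Such counts over all genes are not given for the other settings, so their balance cannot be read as particular to the members. Leaving out 1 library gave 10 to 18 higher and 14 to 22 lower, with a median log2 fold change between -0.092 and -0.054. That median, -0.08 as reported, was -0.010 with total counts, -0.15 with GC-corrected offsets, -0.10 with cyclic loess and -0.030 with the 10 CPM minimum; the cause was not tested. Over all genes, the median of the per-gene difference from the reported fit was 0.07, -0.06 and -0.04 under the first 3. That measure is not the same as the shift of a median. The replicate block gave 19 higher and 25 lower with a median of -0.08. Deviations of same-numbered libraries from their group means had correlations of -0.13, -0.17 and 0.26, within the -0.28 to 0.34 of the other pairs. With 3 libraries per group, these values cannot tell whether same-numbered libraries shared a batch. The 46 genes named by the rules above, which leave out chs1, had 767 values under the alternatives. Of these, 704 kept their direction and side of the threshold and 63 kept their direction and lost the call. Calls of members and listed genes under about 100 counts per library rest on few reads, and changes there may be missed.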
